A study of Mus musculus with 6 samples.

Results

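Mitochondrial ribosomal protein genes are the nuclear genes for the proteins of the ribosome inside mitochondria. Membership was set by name alone, for the genes of the count table whose GRCm38 symbol starts with Mrpl or Mrps followed by a digit. This family was chosen with earlier results of these data known. The rule found 78 of the 16312 genes in the table, 49 named Mrpl for the large subunit and 29 named Mrps for the small subunit. All 78 were protein-coding, and all 78 passed the filter on low counts that left 14288 genes for testing. The annotation also holds 5 pseudogenes whose names fit the rule, none of which had a row in the table.

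The old group held 3 biological replicates from male control mice aged 22 months, and the young group 3 from male control mice aged 8 to 12 weeks. The mice were C57BL/6N by the series title and B6 by the sample labels, they served as controls in a parabiosis study (in which animals are joined surgically), and no genetic change or agent is named for either group. Haematopoietic stem cells (HSCs), the bone marrow cells from which all blood lineages descend, were sorted from bone marrow by flow cytometry with markers that the labels do not name, and the labels do not say whether a replicate was 1 mouse or a pool. Libraries held between 12494557 (old replicate 2) and 30931680 counts (young replicate 3). The title and the description of young replicate 2 carry different library numbers. Its count column was matched by the title. Without this library no member was called either, against 423 of the 14625 genes tested in that fit. All 10 HSC markers listed, among them Procr, Slamf1 and Hlf, passed the filter, and their summed level was 3559 to 3918 CPM (counts scaled to a common library size with TMM factors) in old and 3321 to 3915 CPM in young libraries. Of these markers Procr (log2 0.95 ± 0.12 SE) and Slamf1 (1.47 ± 0.19 SE) rose in old mice and none fell, against 3.99% of all genes tested that were called. Groups did not overlap for 5 of the 10, all higher in old mice, against 22.4% of all genes tested. The median was 0.37, and 2 markers had negative values, Hlf (−0.10) and Kit (−0.01).

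The mitochondrial ribosome translates the few messenger RNAs encoded by mitochondrial DNA, whose products are core subunits of the respiratory chain and of ATP synthase. Its RNAs come from the mitochondrial genome, while all its proteins are made in the cytosol from nuclear genes and imported. The small subunit reads the messenger RNA and the large subunit joins the amino acids. Many of the proteins have a bacterial relative, and the others were added in the course of mitochondrial evolution. HSCs rely strongly on glycolysis when at rest and raise mitochondrial activity when they leave that state.

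The comparison asks whether the transcripts of this machinery differ in abundance between HSCs of old and of young mice. No member passed an adjusted p of 0.05 in edgeR's quasi-likelihood test, in either direction, against 3.99% of all genes tested. At an unadjusted p under 0.05 there were 2 members, Mrpl10 and Mrps2, both lower in old mice. That was 2.56% of the members, and 16.5% of all genes tested reached this level. DESeq2 and limma-voom also called no member after adjustment, against 1146 of 15335 and 564 of 14288 genes tested. They had 4 and 2 members at an unadjusted p under 0.05. In bulk samples such as these, fewer cells of a kind and less RNA per cell cannot be told apart.

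The fitted changes lay close to 0 on both sides. In the large subunit 24 members had a positive and 25 a negative log2 fold change (old over young), with a median of −0.02. In the small subunit 17 were positive and 12 negative, with a median of 0.02. The median over all genes tested was −0.02. Members past a 1.5-fold change in either direction numbered 3, namely Mrpl10, Mrps27 and Mrps34, or 3.85% of the members, against 21.7% of all genes tested. The middle 50% of the members spanned 0.40 on the log2 scale.

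How large a change the data still allow is given by the 95% interval of each gene's fold change. The interval lay wholly within a 2-fold change either way for 63 of the 78 members, which is 80.8%, and for 56.1% of all genes tested. By subunit these were 41 of 49 large and 22 of 29 small subunit genes. The members had a median level of 23.3 CPM and a median standard error (SE) of 0.25 on the log2 scale, and all genes tested had 21.4 CPM and 0.26. Without old replicate 1 the number of members with such an interval was 47, and it lay between 53 and 62 without any other single library.

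**Figure D1:**
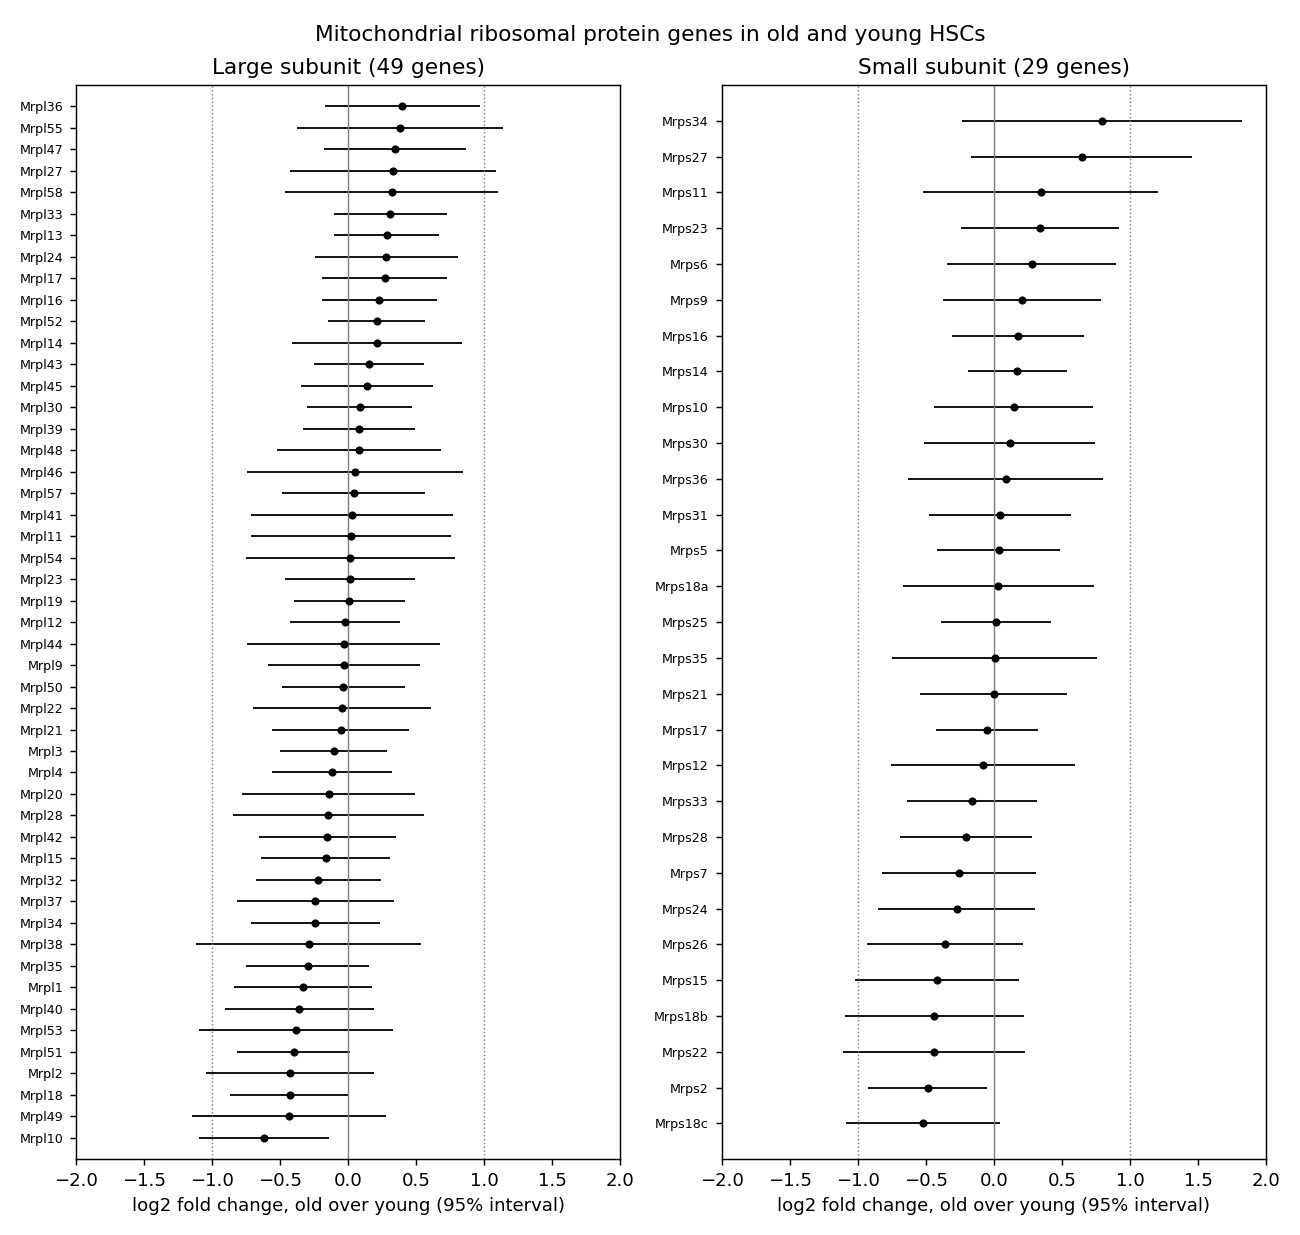
Fitted log2 fold change (old over young, x axis) of each of the 49 large (left) and 29 small subunit genes (right), ordered by value, with 95% intervals from edgeR as horizontal lines and dotted lines at a 2-fold change either way. The values run from −0.62 for Mrpl10 to 0.80 for Mrps34, and the intervals of Mrpl10 and Mrps2 alone do not reach 0.

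The summed level of each subunit overlapped between the ages. The 49 large subunit genes summed to 1251, 1428 and 1339 CPM in old replicates 1, 2 and 3, and to 1459, 1305 and 1304 CPM in young replicates 1, 2 and 3. The range of the old libraries thus crossed that of the young ones, with means of 1339 ± 88.3 CPM in old and 1356 ± 89.4 CPM in young mice (SD, n = 3 each). The 29 small subunit genes summed to 648, 698 and 687 CPM in old and to 734, 667 and 694 CPM in young libraries. Their means were 678 ± 26.5 CPM in old and 698 ± 33.6 CPM in young mice (SD, n = 3 each). Old over young, the sums stood at 0.988 for the large and 0.970 for the small subunit, and both differences were smaller than 1 SD of either group.

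The ratio of the subunits overlapped between the ages too. Large over small, the summed CPM gave 1.93, 2.05 and 1.95 in old libraries and 1.99, 1.96 and 1.88 in young libraries. The means were 1.98 ± 0.0610 in old and 1.94 ± 0.0556 in young mice (SD, n = 3 each). When CPM were first divided by the length of each gene's merged exons, the ratio averaged 2.27 ± 0.102 in old and 2.18 ± 0.0450 in young mice. No p is given for these sums, since they are scores over chosen genes.

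The highest and lowest values were spread unevenly over the libraries. Of the 78 members, 21 had their highest CPM of all libraries in old replicate 2, the library with the lowest total count, and 20 had it in young replicate 1. The lowest CPM fell in young replicate 2 for 21 members and in old replicate 2 for 16. These counts were not made over all genes tested, so whether they are particular to the members was not tested. Young replicate 1 also held more erythroid transcripts (325 CPM over 10 markers, against 95.6 CPM in the lowest young library) and more neutrophil transcripts (237 CPM over 8 markers, against 16.6 CPM). Whether these cells had a part in the members' values was not tested.

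**Figure D2:**
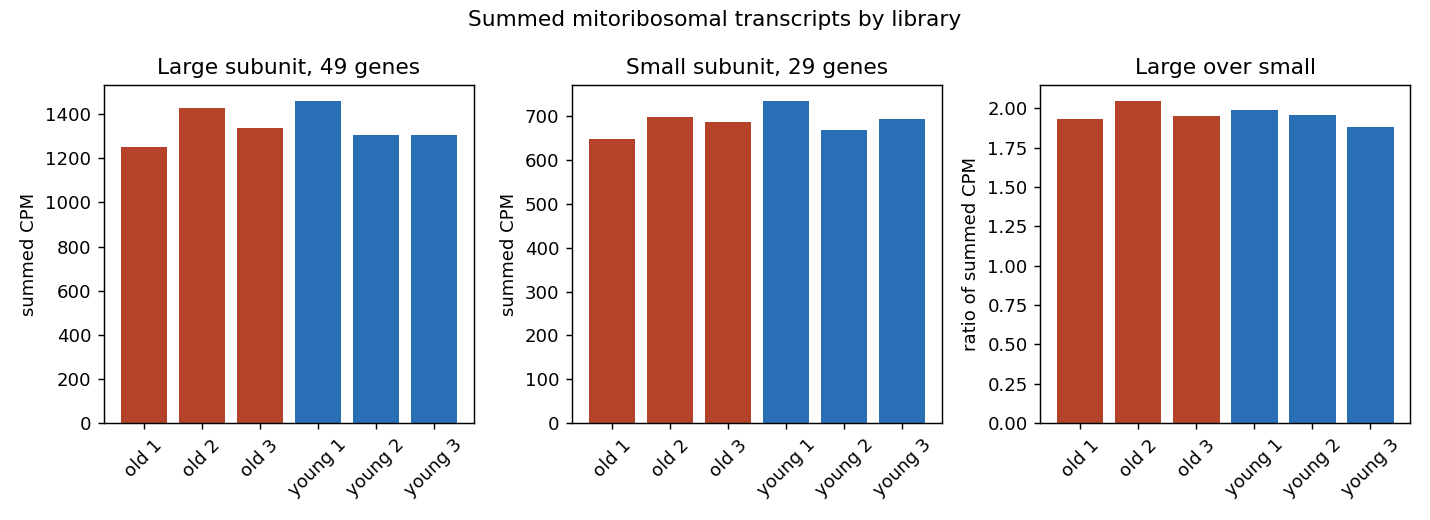
Summed CPM of the 49 large (left) and 29 small subunit genes (middle) and their ratio (right), 1 bar per library, old in red and young in blue. Old replicate 2 (1428 CPM) and young replicate 1 (1459 CPM) are the highest of their groups for the large subunit, and the ratio stays between 1.88 and 2.05.

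The promoters are shown for what the members share in sequence, since the rule used names only. RefSeq windows (build GRCm38.p6, 250 bases before to 50 after the start) matched 69 of the 78 members in 75 windows. Among them 26 windows (34.7%) held CCGGAAG, the core letters of ETS factors such as GABPA, against 8.86% of all 32851 windows. AAGATGGC, the core of YY1, was in 12 windows (16.0%, against 2.75% of all windows), and GCGCATGC, the core of NRF1, in 8 (10.7%, against 2.71%). GGGCGG, the core of SP1, was in 39 windows (52.0%, against 35.7%), which belong to 34 of the 69 genes, as 3 genes have more than 1 window. In 2 windows the SP1 core shared bases with the ETS core. Each motif was searched on both strands, and no other pair of motifs overlapped in a member's window. ETS cores were found in 15 of 43 large and 11 of 26 small subunit genes, and NRF1 cores in 7 large subunit genes and in Mrps18b. A match describes the letters only, and the share is not adjusted for base composition. The 32851 windows were not limited to genes tested here, whereas every member was tested.

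The windows below belong to the members with the smallest p of each subunit (Mrpl10 and Mrps2), to the members with the smallest p among those with an ETS core (Mrpl18 and Mrps18c) and to Mrps11, which starts head to head with Mrpl46. They run 5′ to 3′ on the gene's strand, with NRF1, ETS and YY1 cores in capitals. Mrpl10 is chr11:97041332-97041631 (plus strand), Mrps2 chr2:28467816-28468115 (plus), Mrpl18 chr17:12916042-12916341 (minus), Mrps18c chr5:100798509-100798808 (plus) and Mrps11 chr7:78782881-78783180 (plus).
Mrpl10: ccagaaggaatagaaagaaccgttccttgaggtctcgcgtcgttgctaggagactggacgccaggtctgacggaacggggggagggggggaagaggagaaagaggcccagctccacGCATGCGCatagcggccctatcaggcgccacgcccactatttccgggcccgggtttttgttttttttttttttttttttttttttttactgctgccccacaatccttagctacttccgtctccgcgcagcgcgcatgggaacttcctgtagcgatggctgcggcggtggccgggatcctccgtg
Mrps2: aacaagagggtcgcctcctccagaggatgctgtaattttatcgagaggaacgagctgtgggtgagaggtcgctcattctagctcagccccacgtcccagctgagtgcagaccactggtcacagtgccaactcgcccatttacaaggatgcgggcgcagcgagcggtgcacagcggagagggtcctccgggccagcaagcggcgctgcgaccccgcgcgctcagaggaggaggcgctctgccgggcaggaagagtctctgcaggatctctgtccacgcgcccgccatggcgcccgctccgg
Mrpl18: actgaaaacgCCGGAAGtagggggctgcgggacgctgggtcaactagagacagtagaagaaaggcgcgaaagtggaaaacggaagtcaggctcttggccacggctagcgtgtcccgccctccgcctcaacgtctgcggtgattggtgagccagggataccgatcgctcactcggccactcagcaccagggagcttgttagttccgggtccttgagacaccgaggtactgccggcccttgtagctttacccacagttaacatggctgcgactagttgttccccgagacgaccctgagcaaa
Mrps18c: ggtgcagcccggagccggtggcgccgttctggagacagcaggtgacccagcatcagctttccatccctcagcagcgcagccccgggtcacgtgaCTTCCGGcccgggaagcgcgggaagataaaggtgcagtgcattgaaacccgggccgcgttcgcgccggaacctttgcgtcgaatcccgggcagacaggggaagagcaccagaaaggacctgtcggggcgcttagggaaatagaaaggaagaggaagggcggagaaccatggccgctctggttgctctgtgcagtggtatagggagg
Mrps11: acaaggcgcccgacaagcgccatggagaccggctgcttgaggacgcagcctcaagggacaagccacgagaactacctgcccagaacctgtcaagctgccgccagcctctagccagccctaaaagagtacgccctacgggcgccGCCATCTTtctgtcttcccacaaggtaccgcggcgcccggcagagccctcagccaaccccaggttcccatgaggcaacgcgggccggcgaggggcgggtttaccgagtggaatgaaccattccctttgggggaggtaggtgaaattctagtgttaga
Mrpl10 thus holds 1 NRF1 core, Mrpl18 and Mrps18c hold 1 ETS core each, Mrps11 holds 1 YY1 core, and the Mrps2 window has none of these letters.

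Among large subunit proteins, Mrpl10 had the smallest p. Its protein sits at the base of the flexible stalk that recruits translation factors, where it carries Mrpl12. Mrpl10 (ENSMUSG00000001445.10, GRCm38 chromosome 11 from 97041560 to 97049213, plus strand) stood at 17.6, 17.2 and 22.4 CPM in old libraries, and at 31.2, 24.7 and 32.1 CPM in young libraries. All old libraries lay below all young ones. Exons of Mrpl10 overlap those of Gm11574 on the other strand. The fitted change was 0.651-fold (log2 −0.62 ± 0.22 SE, 95% interval 0.468-fold to 0.906-fold), with an adjusted p of 0.161 in edgeR. In the authors' deposited table this gene had a log2 fold change of 0.65 as young over old and an adjusted p of 0.031, and it was the 1 member of 78 below 0.05 there, against 6.17% of the genes with an adjusted p in that table. Over the alternatives tried here its log2 value lay between −0.74 and −0.55 and its lowest adjusted p was 0.0702, with DESeq2.

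Its stalk partner Mrpl12, which is also reported to bind the mitochondrial RNA polymerase, had a value near 0. Mrpl12 averaged 33.6 ± 1.83 CPM in old and 34.2 ± 4.29 CPM in young mice (SD, n = 3 each), a log2 value of −0.02 with a 95% interval from −0.43 to 0.38. The difference between Mrpl10 and Mrpl12 was itself not tested.

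The next members of the large subunit by p were Mrpl18, Mrpl51, Mrpl33 and Mrpl13. Mrpl18, a relative of the bacterial protein that binds 5S ribosomal RNA, stood at 37.6, 47.4 and 39.5 CPM in old and at 70.3, 44.1 and 53.3 CPM in young libraries, so the groups overlapped (log2 −0.43, adjusted p = 0.309, edgeR, and log2 −0.23 without young replicate 1). Mrpl51, a protein without a bacterial relative, stood at 30.4, 29.0 and 31.8 CPM in old and at 34.4, 48.0 and 37.9 CPM in young libraries (adjusted p = 0.326, edgeR). The old values of Mrpl51 spread little and lay below the young ones. Mrpl33 had 33.7, 47.1 and 40.9 CPM in old and 36.2, 30.7 and 31.2 CPM in young libraries, with overlap. Mrpl13 had 35.9, 39.9 and 40.3 CPM in old and 33.2, 29.1 and 33.1 CPM in young libraries, without overlap but only 1.22-fold apart (adjusted p = 0.482, edgeR).

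The largest positive values in this subunit belonged to Mrpl36 and Mrpl55, at log2 0.40 ± 0.26 SE and 0.38 ± 0.35 SE. Mrpl36, a small protein shared with bacteria, stood at 29.2, 42.7 and 37.8 CPM in old and at 36.9, 18.4 and 27.9 CPM in young libraries, where young replicate 2 was lowest. Its log2 value was 0.17 without young replicate 2 and 0.66 without young replicate 1. Mrpl55 averaged 8.18 ± 1.43 CPM in old and 6.25 ± 1.23 CPM in young mice (SD, n = 3 each). Next to Mrpl10, the most negative value was that of Mrpl49 (log2 −0.44 ± 0.33 SE), whose old libraries held 19.1, 35.4 and 12.8 CPM and whose young libraries held 30.6, 35.3 and 24.5 CPM. The Mrpl49 values of the old group bracketed those of the young group, and its log2 value was −0.92 without old replicate 2 and −0.14 without old replicate 3.

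Other members with a particular role in the large subunit did not pass the test. Mrpl45, which anchors the ribosome to the inner mitochondrial membrane, had a log2 value of 0.14 ± 0.22 SE. Mrpl44, which has the fold of an RNase III enzyme, had −0.03 ± 0.32. Mrpl58, a peptidyl-tRNA hydrolase built into the ribosome that also goes by the name Ict1, had 0.32 ± 0.36, and without old replicate 3 the value of Mrpl58 was 0.042.

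In the small subunit Mrps2 had the smallest p. It belongs to the proteins shared with bacteria and lies on chromosome 2 from 28468066 to 28471178 of GRCm38. Mrps2 stood at 39.3, 37.7 and 43.1 CPM in old libraries, and at 71.2, 55.2 and 42.2 CPM in young libraries. The highest old value exceeded the lowest young value. The fitted change was 0.713-fold (log2 −0.49 ± 0.20 SE, adjusted p = 0.243, edgeR), and without young replicate 1 the log2 value was −0.28.

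The largest positive values of all 78 members were those of Mrps34 and Mrps27. Mrps34, which is needed for a stable small subunit, stood at 7.55, 6.46 and 6.23 CPM in old and at 5.26, 1.65 and 4.74 CPM in young libraries, without overlap (log2 0.80 ± 0.47 SE, adjusted p = 0.452, edgeR). Its lowest library, young replicate 2, held 42 counts, the fewest of any member in any library, and without that library the log2 value was 0.43. Exons of Mrps34 overlap those of Nme3 on the same strand and of Mapk8ip3 on the other, so its counts are uncertain. Mrps27, an RNA-binding protein of the pentatricopeptide repeat family, stood at 8.18, 20.6 and 10.99 CPM in old and at 7.59, 10.5 and 7.18 CPM in young libraries. The high value of Mrps27 came from old replicate 2, and without that library its log2 value of 0.64 was 0.19. Mrps15 had 19.4, 21.1 and 19.8 CPM in old and 18.5, 38.98 and 23.1 CPM in young libraries, with only young replicate 2 far above the others, and without it the log2 value of −0.42 was −0.05.

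Vertebrates carry 3 paralogues of the bacterial small subunit protein S18. Mrps18c, the member at the bacterial position, stood at 11.8, 17.9 and 11.3 CPM in old and at 19.4, 20.7 and 18.3 CPM in young libraries, without overlap (log2 −0.52 ± 0.26 SE, adjusted p = 0.355, edgeR). Mrps18b averaged 9.499 ± 2.07 CPM in old and 12.9 ± 2.49 CPM in young mice (SD, n = 3 each), a log2 value of −0.44 ± 0.30 SE. Mrps18a, whose protein lies in the large subunit in spite of its name, averaged 9.51 ± 1.77 CPM in old and 9.27 ± 2.16 CPM in young mice, a log2 value of 0.03 ± 0.32 SE. Mrps30, another protein of the large subunit by structure, had 0.12 ± 0.29, and Mrps12, a decoding centre protein, had −0.08 ± 0.31. Mrps36, now assigned to the oxoglutarate dehydrogenase complex rather than to the ribosome, had 0.09 ± 0.33. Mrps30 and Mrps18a were also moved to the large subunit, Mrps36 was left out and the 5 proteins that carry other symbols were added. Called genes then numbered 0 of 52 (large) and 0 of 30 (small), against 3.99% of all genes tested.

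**Figure D3:**
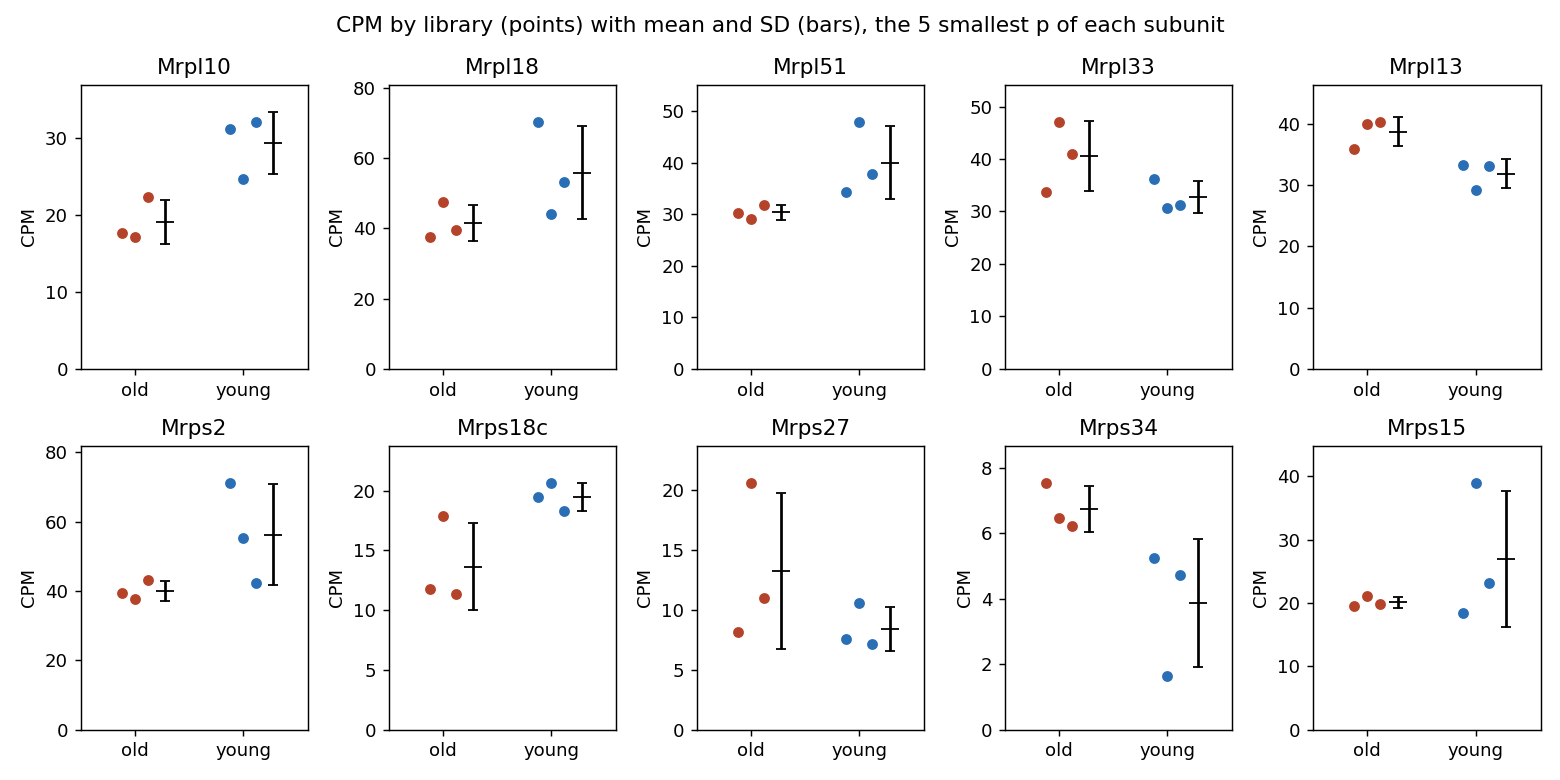
CPM in each library (points, y axis from 0) of the 5 members with the smallest p in the large (top) and small subunit (bottom), old in red left of young in blue, with mean and SD as bars. Groups are apart for Mrpl10, Mrpl51, Mrpl13, Mrps18c and Mrps34, and 1 library stands away from its group for Mrps27 (old, 20.6 CPM), Mrps34 (young, 1.65 CPM) and Mrps15 (young, 38.98 CPM).

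In all, the CPM of the age groups did not overlap for 7 members, which is 8.97%, against 22.4% of all genes tested. These were Mrpl13, Mrpl16, Mrpl43 and Mrps34 on the higher side in old mice and Mrpl10, Mrpl51 and Mrps18c on the lower side. Mrpl16 averaged 28.8 ± 2.82 CPM in old and 24.6 ± 0.211 CPM in young mice, and Mrpl43 30.3 ± 2.09 CPM in old and 27.2 ± 0.741 CPM in young mice (SD, n = 3 each). Both were named for this separation after their values were seen.

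Genes with and without a bacterial relative had medians near 0, and none was called in either class, against 3.99% of all genes tested. The 29 large subunit genes with a bacterial relative had a median log2 value of −0.03 and the 18 without one −0.0068. In the small subunit the medians were −0.02 over 16 genes and 0.03 over 10 genes. For 5 members no origin was assigned.

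Levels of different members were compared as CPM per kilobase of merged exons. They spanned 31.6-fold from the lowest member, Mrps35, to the highest, Mrpl52. Mrpl52 averaged 73.7 ± 11.3 CPM per kb in old and 63.6 ± 8.22 in young mice, Mrpl34 36.5 ± 3.93 in old and 43.1 ± 7.45 in young mice, and Mrpl18 29.7 ± 3.71 in old and 39.97 ± 9.501 in young mice (SD, n = 3 each). In the small subunit Mrps33 led with 26.6 ± 6.98 CPM per kb in old and 29.7 ± 5.75 in young mice, followed by Mrps28 with 22.5 ± 2.82 in old and 25.9 ± 1.39 in young mice and Mrps14 with 25.6 ± 4.92 in old and 22.7 ± 2.84 in young mice. The 2 lowest members of each subunit were, in the small subunit, Mrps35 with 2.17 ± 1.03 CPM per kb in old and 2.17 ± 0.482 in young mice, Mrps18a with 2.58 ± 0.478 in old and 2.51 ± 0.5848 in young mice, and in the large subunit Mrpl58 with 3.09 ± 0.979 in old and 2.48 ± 0.73 in young mice and Mrpl48 with 3.09 ± 1.08 in old and 2.92 ± 0.647 in young mice.

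For 76 of 77 neighbouring pairs in this order, the ranges over the 6 libraries, old and young pooled, overlapped. Neighbours were not compared within each library, so whether they differ was not tested. The median member of the large subunit had 9.03 CPM per kb and that of the small subunit 6.97. The length used matters for the order. With the longest protein-coding transcript in place of merged exons the rank correlation with the first order was 0.69 over the 78 members, which share libraries and counts. Mrpl52 was first and Mrps35 within the last 2 places on both scales, whereas Mrps18a stood at place 77 with merged exons and at place 48 with the transcript length, and Mrpl33 stood at place 62 with merged exons and at place 2 with the transcript length.

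Many members have their 5′ end near that of a gene on the other strand. For 33 of 78 members (42.3%) a protein-coding gene on the other strand had its 5′ end within 1000 bases, and the same held for 14.98% of all genes tested. Such pairs are called head to head here, but the rule did not ask whether the genes point away from each other. In some pairs, such as Mrpl18 and Tcp1, the annotated exons overlap. Mrps12 neighbours the mitochondrial seryl-tRNA synthetase gene Sars2 at 172 bases. By the outermost annotated ends Mrpl36 neighbours the complex I gene Ndufs6 at 29 bases. The RefSeq window of Mrpl36 (chr13:73330759-73331058) lies downstream of the annotated 5′ end at 73328513, so this distance depends on the annotation. Mrpl46 and Mrps11, a large and a small subunit gene, neighbour each other, with annotated 5′ ends 412 bases apart and overlapping exons. The RefSeq window of Mrpl46 (chr7:78783040-78783339) does not reach its annotated 5′ end at 78783531, so this spacing depends on the annotation too. That window also overlaps the Mrps11 window printed above.

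The neighbours were tested for 31 of these members, and the neighbour was called for 1 of them, against 3.99% of all genes tested. This was Wdfy1, whose 5′ end lies 125 bases from that of Mrpl44. Wdfy1 stood at 45.2, 46.9 and 38.7 CPM in old and at 91.1, 99.3 and 101 CPM in young libraries (log2 −1.16 ± 0.14 SE, adjusted p = 0.000949, edgeR). Mrpl44 stood at 10.4, 13.3 and 10.2 CPM in old and at 15.3, 7.37 and 11.9 CPM in young libraries, with overlap of the groups. The pair also shares exon positions on opposite strands, so reads in that stretch could be assigned to either gene unless strand was used, which is not given in the sources used here. Exons of 33 of the 78 members overlap those of another gene on either strand. Among them are Mrpl10, Mrpl18, Mrpl51, Mrpl33, Mrpl13, Mrps18c, Mrps27 and Mrps34, whose counts and levels carry that uncertainty. Of the 45 members without such overlap none was called, against 3.99% of all genes tested. Their medians were −0.04 in the large and 0.02 in the small subunit.

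**Figure D4:**
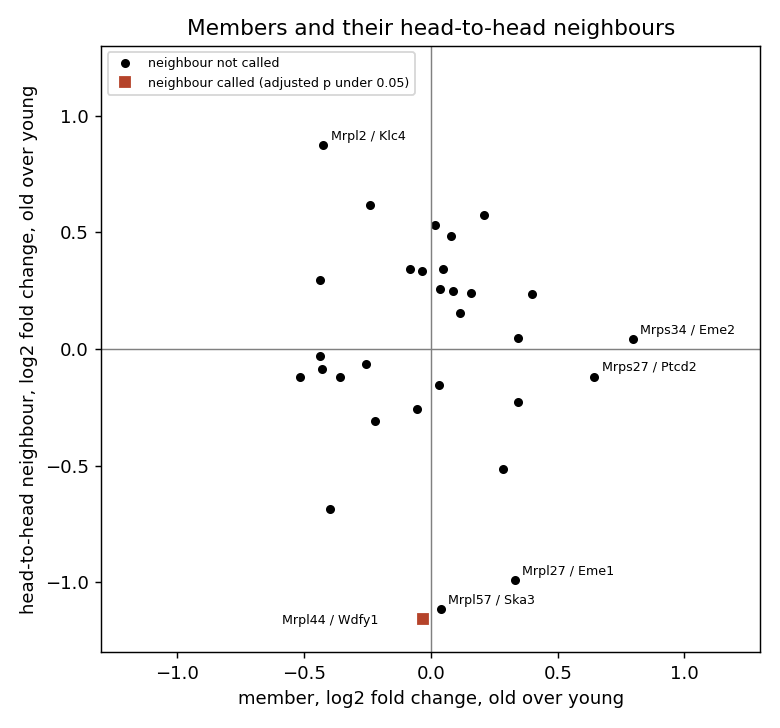
Log2 fold change (old over young) of members (x axis) and of their head-to-head neighbours (y axis), 1 point for each of the 31 members whose neighbour was tested. The called neighbour Wdfy1 (red square, −1.16) stands beside Mrpl44 at −0.03, and Mrpl46 and Mrps11 appear once each as the other's neighbour.

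Of the lists on mitochondrial gene expression, 4 hold nuclear genes only and had no called gene, against 3.99% of all genes tested. None of the 5 mitoribosomal proteins with other symbols was called, and their median log2 value was −0.09, with Gadd45gip1 at −0.42 ± 0.34 SE, Chchd1 at −0.18 ± 0.28 and Ptcd3 at −0.09 ± 0.15. None of 14 translation factors was called (median −0.06), and the elongation factor genes Gfm1 and Tufm had −0.41 ± 0.15 and −0.58 ± 0.34, with the initiation factor gene Mtif2 at −0.23 ± 0.14. None of 24 assembly and ribosomal RNA modification factors was called (median 0.0068), among which the GTPase gene Noa1 had 0.45 ± 0.18 and the methyltransferase genes Mettl17 and Mrm1 had −1.001 ± 0.44 and −0.75 ± 0.35. None of 17 genes of mitochondrial DNA and RNA handling was called (median 0.02). Of these, Hsd17b10 and Trmt10c, subunits of the enzyme that trims the 5′ ends of mitochondrial transfer RNAs, had 0.64 ± 0.18 and 0.53 ± 0.20 (adjusted p = 0.0799 and 0.206, edgeR), and Fastkd5, a factor of mitochondrial RNA processing, had −0.44 ± 0.18. In these lists 1, 2 and 3 genes reached an unadjusted p under 0.05 for translation factors, assembly factors and RNA handling, and none for the proteins with other symbols. These were 7.14%, 8.33% and 17.6% of the lists, and 16.5% of all genes tested reached that level.

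Of the 13 mitochondrially encoded messenger RNAs, which this ribosome translates, 2 rose and none fell, against 3.99% of all genes tested that were called. Both were named after their values were seen. They encode complex I subunits, mt-Nd3 with 354, 569 and 509 CPM in old and 43.998, 47.4 and 51.5 CPM in young libraries (adjusted p = 1.18e-06, edgeR) and mt-Nd6 with 605, 701 and 682 CPM in old and 488, 496 and 481 CPM in young libraries (adjusted p = 0.0263, edgeR). Groups did not overlap for these 2 and for mt-Nd5 (log2 0.34, not called), which was also named after its values were seen. That was 23.1% of the 13, against 22.4% of all genes tested. The median log2 value of the 13 was 0.13, and 10 were positive. The 3 negative values were those of mt-Nd1 (−0.18), mt-Nd2 (−0.06) and mt-Nd4l (−0.23), which also encode complex I subunits.

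A further 2 lists were measured in the same libraries. Of 82 genes with symbols of cytosolic ribosomal proteins 11 rose and none fell, against 3.99% of all genes tested that were called. The median log2 value of the 82 was 0.20, and none was past a 1.5-fold change, against 21.7% of all genes tested. The 82 genes summed to 89058 ± 5709 CPM in old and 76198 ± 2049 CPM in young mice (SD, n = 3 each). Of 12 proliferation genes, which serve DNA replication and mitosis, 11 fell and none rose, against the same 3.99%, with a median of −0.77. They summed to 1919 to 2494 CPM in old and to 3839 to 4472 CPM in young libraries. The difference between these lists and the mitochondrial ribosome was not tested.

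**Figure D5:**
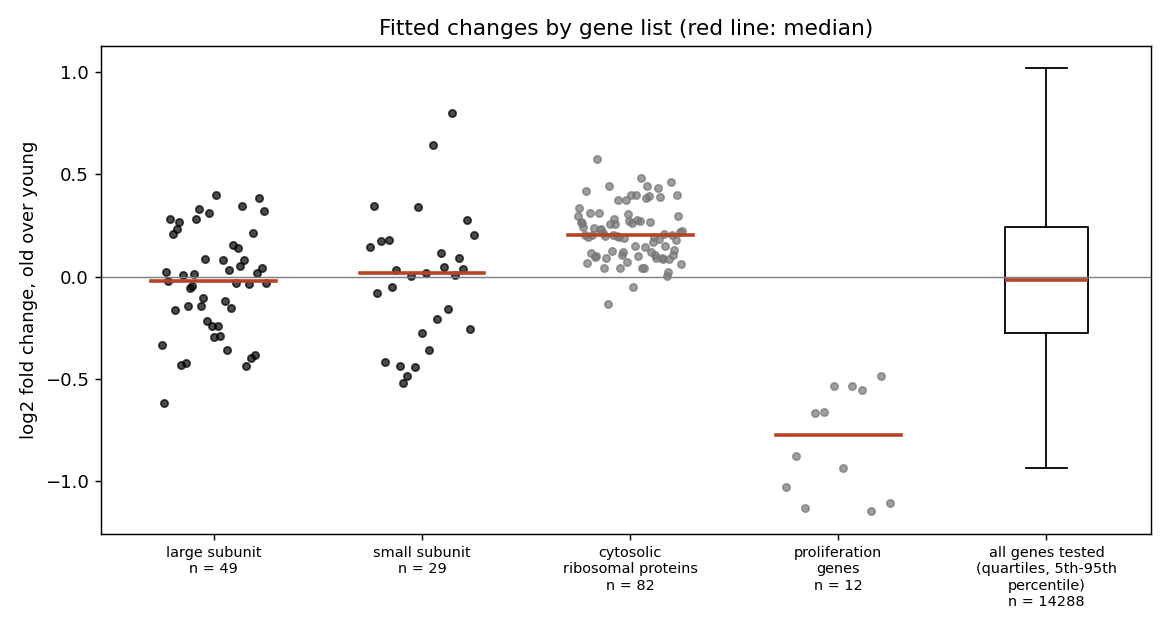
Fitted log2 fold change (old over young, y axis) of each gene of the large and small subunits, of 82 cytosolic ribosomal protein genes and of 12 proliferation genes (points, red line at the median), and a box of quartiles with whiskers at the 5th and 95th percentile for all 14288 genes tested. The medians are −0.02, 0.02, 0.20, −0.77 and −0.02.

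Markers of other blood cells differed between the ages. The numbers that fell stand beside 3.99% of all genes tested that were called in either direction. Macrophage markers summed to 5.96 to 6.92 CPM in old and 36.2 to 47.4 CPM in young libraries, where 7 of 9 tested markers fell and Adgre1, Cd5l, Fcna and C1qb had no count in any old library. Erythroid markers summed to 58.1 to 63.4 CPM in old and 95.6 to 325 CPM in young libraries (3 of 7 tested fell), and neutrophil markers to 5.57 to 8.43 CPM in old and 16.6 to 237 CPM in young libraries (4 of 5 tested fell). Lymphoid markers summed to at most 1.93 CPM, and none was tested. The part of these cells in the values of the mitochondrial ribosome was not tested.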

How the data were processed

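The authors deposited estimated counts per gene, which were whole numbers, so none was rounded. Salmon, FastQC, MultiQC, DESeq2 and the build GRCm38 appear in the submitters' processing notes, without versions or roles. A second table deposited by the authors gives per gene a base mean, a normalised signal, beside the log2 fold change, its standard error and test statistic (used as scores), and a raw and an adjusted p-value. Its sign was opposite to old over young here for 90.6% of genes, so it was read as young over old. Libraries total 12494557 to 30931680 counts. The p-values set the difference between groups against the variation between libraries within a group, with dispersion estimates moderated over all genes. Each group has 3 libraries, which the series' design text calls biological replicates.

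Symbols, positions and lengths came from GENCODE M21 (GRCm38), which named 16301 of 16312 genes by identifier without version. Counts were fitted in R 4.3.3 with edgeR 4.0.16 (quasi-likelihood F test, two-sided, TMM scaling, default filter with a minimum count of 10 and minimum total of 15, Benjamini-Hochberg over all 14288 genes tested, threshold 0.05). SEs were derived from the fitted change and its F statistic, and 95% intervals from the matching t distribution. The fit was tested on simulated counts. DESeq2 1.42.0, limma 3.58.1, other scalings and fits without 1 library were alternatives. Members named with values are the 5 with the smallest p, 3 highest and 2 lowest per kilobase, 2 highest and 2 lowest fold changes of each subunit, those with special roles, and in the related lists the 3 with the smallest p. The members and lists were chosen with earlier results of these data known.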

Additional observations from a re-analysis of the deposited data

How the results depend on the processing

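No member was called in any of the 12 alternative fits (other scalings, no filter, DESeq2, limma-voom, or 1 library left out), nor with the subunits assigned by structure. Over all genes tested, the alternative fits called from 245 of 14631 (without old replicate 3) to 1146 of 15335 (DESeq2). The lowest adjusted p of any member was 0.0702 with DESeq2 (Mrpl10) and 0.0992 without young replicate 3 (Mrps2), and between 1 and 5 members had an unadjusted p under 0.05. The medians stayed near 0 but changed sign. That of the small subunit was −0.078 without young replicate 2, and ran from −0.078 to 0.071 over the fits without 1 library, and that of the large subunit from −0.064 to 0.035. With library size alone the medians were −0.08 for the large and −0.04 for the small subunit, while that of all genes was −0.07. Old over young, the summed CPM without 1 library lay between 0.955 and 1.03 for the large and between 0.949 and 0.996 for the small subunit. The order by level changed with the length used (rank correlation 0.69).

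Among the values of named members under the alternatives, 319 kept their sign and 29 did not, and the cause was not tested. Without 1 library the log2 value ran from −0.23 to 0.26 for Mrpl48, −0.36 to 0.021 for Mrps33, −0.33 to 0.33 for Mrps35, −0.11 to 0.23 for Mrps18a, −0.16 to 0.47 for Mrps36, −0.11 to 0.37 for Mrps30, −0.12 to 0.035 for Mrpl12, −0.043 to 0.25 for Mrpl45, −0.27 to 0.22 for Mrpl44 and −0.29 to 0.070 for Mrps12. With limma-voom Mrpl48 stood at −0.013, Mrps35 at −0.0023, Mrps18a at −0.0065 and Mrpl44 at 0.00055. With library size alone Mrps35 stood at −0.044 and Mrps18a at −0.028, and with upper-quartile scaling Mrps35 stood at −0.011. The restriction to members without exon overlap was chosen after seeing the data. No paired analysis was possible because the labels give no number shared by young and old libraries. Depth limits the lowest members most, since Mrps34 rested on 42 to 179 counts per library.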
